A study of Brassica napus with 24 samples.

Results

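The study's gene tables match 3 of the 43603 probes on the array, A_46_P284178, A_46_P226134 and A_46_P072946, to ABCA2, the Arabidopsis gene AT3G47730. The tables match 2 of them, A_46_P226134 and A_46_P072946, to the same rapeseed contig and A_46_P284178 to another one. On the array itself A_46_P284178 and A_46_P072946 carry the same transcript identifier, EV095656, and A_46_P226134 carries CX189240, so the 3 probes are not independent readings of 3 genes. No further probe on the array carries either identifier, but the study's tables name only probes listed as changed. ABCA2 probes outside that list could not be recognized here. The probes were chosen by their differences between MES-treated and mock-treated leaves and between tissues in the study's list, so leaf values and tissue differences are given below as a description, without a test.

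ATP-binding cassette (ABC) transporters are membrane proteins that use the energy of ATP to move lipids, hormones, metabolites or foreign compounds across membranes. ABCA2 belongs to the A subfamily, whose members in animals and plants are mostly linked to lipids. In Arabidopsis the related ABCA9 supplies fatty acids for oil synthesis in seeds. Plant ABC transporters of other subfamilies export herbicide conjugates or deposit lipid precursors on the surface of pollen.

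Rapeseed (Brassica napus) of the cultivar Zhongshuang No. 9 was grown in the field and sprayed at bolting. MES (monosulfuron ester sodium) is a sulfonylurea inhibitor of acetolactate synthase, used as a chemical that induces male sterility. The MES-treated group received 0.1 μg/mL MES with 50 ppm DMF and 5 ppm of the detergent Tween, with some 15 mL sprayed on a plant, and mock-treated plants received the same solution without MES. Each group held 60 rows of 1 divided plot. From both groups young leaves (Ls), small buds under 1 mm (SBs), anthers of middle buds of 1 to 3 mm (An-MBs) and anthers of large buds over 3 mm (An-LBs) were taken, which gives MES Ls, mock Ls, MES SBs, mock SBs, MES An-MBs, mock An-MBs, MES An-LBs and mock An-LBs with 3 arrays each. A replicate was a mixture of plants from many rows, and replicates of a treatment came from the same plot. The p-values therefore set a difference against the spread between such mixtures. How the rows of each group lay in the plot is not given, so place and treatment cannot be told apart.

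The share of probes detected (well above background by the scanner software) ran from 73.0% to 81.9% per array, and the 3 ABCA2 probes were detected on all 24 arrays, with 0 saturated and 0 outlying spots. Arrays of mock samples were on slides 1 to 3 and arrays of MES samples on slides 4 to 6, except replicate 2 of MES An-LBs, which was on slide 7 and was read by another scanner. Replicate 1 of every mock group was scanned on another day than the other arrays of slides 1 to 6. Slide and treatment therefore cannot be told apart, nor can tissue and position on the slide. Replicate 2 of MES An-MBs was dim, with a median signal before normalization of 383.9, against 1098 and 1162 on its fellow arrays. The 8 photosynthesis probes used as leaf markers averaged between 15.44 and 16.17 on the log2 scale in Ls and between 11.50 and 13.67 in all other samples. The 5 pollen probes averaged between 5.94 and 7.47 in MES An-LBs, against 16.37 to 16.46 in mock An-LBs, and between 4.04 and 4.42 in MES An-MBs, against 11.01 to 13.04 in mock An-MBs. In Ls and SBs they averaged at most 5.49. Leaves of both treatments and anthers of mock-treated plants thus carried the markers of their labels, and the pollen probes were low in MES-treated anthers. All these marker probes come from the study's list of probes changed on these arrays. Their calls between treatments and their differences between tissues are therefore no independent evidence of cell types.

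ABCA2 transcripts were higher in MES Ls than in mock Ls with all 3 probes. The normalized log2 signal of A_46_P072946 was 13.03, 12.81 and 13.15 in MES Ls, against 11.44, 11.11 and 11.07 in mock Ls. That of A_46_P226134 was 13.78, 13.34 and 13.65 in MES Ls, against 12.03, 11.72 and 11.74 in mock Ls. That of A_46_P284178 was 11.36, 11.54 and 11.70 in MES Ls, against 10.13, 9.90 and 9.94 in mock Ls. Every MES array lay above every mock array for each probe, and the lowest MES array was more than a log2 unit above the highest mock array. The difference was 1.79 (standard error 0.19) for A_46_P072946, which is 3.46-fold. It was 1.76 (standard error 0.20), or 3.39-fold, for A_46_P226134, and 1.54 (standard error 0.18), or 2.91-fold, for A_46_P284178. Among the arrays scanned on the same day, without replicate 1 of mock Ls, the differences were 1.91, 1.86 and 1.61 in the same order of probes. The median difference over all probes tested in Ls was -0.05.

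The size of the leaf difference can be placed among all 32491 probes tested in Ls. By size of rise, A_46_P072946 held rank 969, A_46_P226134 rank 997 and A_46_P284178 rank 1302, which are the top 2.98%, 3.07% and 4.01%. Separation of all MES from all mock arrays in this direction was found for 18.2% of the probes in Ls, and 2.52% were called higher, a call being a Benjamini-Hochberg adjusted p under 0.05 by limma with at least a 2-fold change. Since the leaf contrast chose the 3 probes, nothing is read from these shares. The leaf markers averaged 15.44 to 15.86 in MES Ls and 15.95 to 16.17 in mock Ls, with 8 of 8 detected on every array, 0 of 8 called by limma and 2 at an unadjusted p under 0.05. Of the 3 pollen markers tested in Ls, 1 was called higher. Their part in the ABCA2 difference was not tested. In samples of mixed cells, a change in the share of a cell type and a change of RNA per cell cannot be told apart.

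In SBs the 3 probes had higher means in MES-treated buds, by less than in leaves, and limma called none of the 3, with 1 at an unadjusted p under 0.05, where 1.81% of the 33935 probes tested were called higher. A_46_P284178 had log2 signals of 9.85, 10.61 and 10.60 in MES SBs, against 9.73, 9.63 and 9.81 in mock SBs. It was the only one of the 3 probes with all MES arrays above all mock arrays, which held for 15.5% of all probes. The difference was 0.63 (standard error 0.24), a ratio of 1.55 with a 95% interval from 1.04 to 2.31, and its adjusted p by limma was 0.194.

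A_46_P072946 had 11.14, 11.96 and 12.11 in MES SBs, against 11.29, 11.45 and 11.22 in mock SBs. A_46_P226134 had 12.02, 12.66 and 12.42 in MES SBs, against 12.01, 12.14 and 11.91 in mock SBs. With each probe, replicate 1 of MES SBs lay close to the mock arrays while replicates 2 and 3 lay above all of them. The ratios were 1.33 (95% interval 0.84 to 2.12) for A_46_P072946 and 1.27 (0.90 to 1.79) for A_46_P226134, with adjusted p by limma of 0.449 and 0.387. Without replicate 1 of MES SBs, the difference of A_46_P284178 was 0.88 (adjusted p by limma of 0.0820) and that of A_46_P072946 was 0.71 (adjusted p by limma of 0.140). Over the arrays left out singly, the differences in SBs ran from 0.51 to 0.88 for A_46_P284178, from 0.20 (without MES replicate 2) to 0.52 (without MES replicate 1) for A_46_P226134 and from 0.23 (without MES replicate 3) to 0.71 for A_46_P072946. The median over all probes tested in SBs was 0.05. Leaf markers averaged 13.20 to 13.67 in MES SBs and 13.21 to 13.60 in mock SBs, with 0 of 8 called by limma and 1 at an unadjusted p under 0.05, and the 1 pollen marker tested was not called.

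In An-MBs, which span meiosis to young microspores, ABCA2 signal was already high in mock-treated anthers, and the groups overlapped with all 3 probes. A_46_P072946 had 13.14, 12.43 and 12.94 in MES An-MBs, against 12.88, 12.34 and 12.68 in mock An-MBs. A_46_P226134 had 13.79, 13.23 and 13.50 in MES An-MBs, against 13.46, 12.75 and 13.39 in mock An-MBs. A_46_P284178 had 11.66, 9.73 and 11.30 in MES An-MBs, against 11.09, 10.40 and 11.04 in mock An-MBs. Replicate 2 was the lowest array of both groups with every probe. Limma called none of the 3 probes, with 0 at an unadjusted p under 0.05, where 4.24% of the 34773 tested were called higher, and 0 of 3 were separated, which held for 15.6% in this direction.

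The ratios in An-MBs were 1.15 (95% interval 0.72 to 1.83) for A_46_P072946, 1.24 (0.77 to 2.00) for A_46_P226134 and 1.04 (0.42 to 2.56) for A_46_P284178. Their adjusted p by limma were 0.705, 0.571 and 0.969. The wide interval of A_46_P284178 goes with the dim array, on which its signal before normalization was 426.2, against 4211 and 3550 on replicates 1 and 3. Without that array its difference was 0.63 (adjusted p by limma of 0.154). Without MES replicate 1 it was -0.33, without MES replicate 3 it was -0.15, and without replicate 2 of mock An-MBs it was -0.17. The difference of A_46_P226134 ran from 0.082 without mock replicate 2 to 0.45 without MES replicate 2 of An-MBs. That of A_46_P072946 ran from 0.055 without MES replicate 1 to 0.41 without MES replicate 2, and was 0.060 without mock replicate 2. Without replicate 2 of both groups, a comparison chosen after the values were seen, the differences were 0.41, 0.22 and 0.26 for A_46_P284178, A_46_P226134 and A_46_P072946 (adjusted p by limma of 0.166, 0.377 and 0.299). Of all probes tested in An-MBs 2.86% were called lower and 4.24% higher. In these samples 5 of 5 pollen markers were called lower and 3 of 8 photosynthesis probes were called higher in MES An-MBs, and their part in the ABCA2 values was not tested.

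In An-LBs, which span vacuolated microspores to mature pollen, ABCA2 signal was the highest of the 4 tissues in either treatment. A_46_P226134 had 13.98, 13.89 and 14.06 in MES An-LBs, against 13.66, 13.33 and 13.55 in mock An-LBs, without overlap. A_46_P072946 had 13.30, 12.98 and 13.61 in MES An-LBs, against 13.19, 13.05 and 13.02 in mock An-LBs, and here the groups overlapped. A_46_P284178 had 11.68, 11.88 and 11.91 in MES An-LBs, against 11.82, 11.85 and 11.79 in mock An-LBs, with near equal means. The arrays of mock An-LBs were the most alike of any group for this probe, with an SD of 0.026.

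Limma called none of the 3 probes in An-LBs, with 1 at an unadjusted p under 0.05, where 17.3% of the 35095 probes tested were called higher. The separation seen with 1 of 3 probes was found for 35.7% of all probes. The ratios were 1.38 (95% interval 1.05 to 1.81) for A_46_P226134, 1.16 (0.82 to 1.63) for A_46_P072946 and 1.00 (0.78 to 1.28) for A_46_P284178, and the adjusted p by limma were 0.0616, 0.443 and 0.994. A change of 2-fold lay outside all 3 intervals. With scan date as a block, which leaves the arrays of a single day, the differences in An-LBs were 0.58, 0.42 and -0.025 in the same order of probes (adjusted p by limma of 0.166, 0.288 and 0.950). With single arrays left out, that of A_46_P072946 ran from 0.053 without MES replicate 3 to 0.37 without MES replicate 2, and that of A_46_P226134 from 0.37 to 0.53. The median over all probes tested was 0.24 in An-LBs. Relative to it the difference was 0.22 for A_46_P226134, -0.03 for A_46_P072946 and -0.24 for A_46_P284178. With arrays scaled by their 75th percentile the median was 0.14 and these values were 0.23, 0.0028 and -0.12. In An-LBs, where 11.9% of all probes were called lower and 17.3% higher, 5 of 5 pollen markers were called lower. They averaged 5.94 to 7.47 in MES An-LBs and 16.37 to 16.46 in mock An-LBs. Of the 8 photosynthesis probes 7 were called higher and 1 lower. The part of both marker lists in the ABCA2 values was not tested.

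Whether the difference changed among the bud and anther stages was tested as a contrast of contrasts in 1 limma fit of all 24 arrays, 3 contrasts for 3 probes. None of the 9 passed an adjusted p of 0.05, and 0 had an unadjusted p under it, while the adjusted threshold was passed by 5.20% of all probes for An-MBs minus SBs, 21.8% for An-LBs minus SBs and 14.7% for An-LBs minus An-MBs. The largest were those of A_46_P284178, at -0.63 (95% interval -1.64 to 0.38, adjusted p by limma of 0.395) for An-LBs minus SBs and -0.58 (-1.59 to 0.43, adjusted p by limma of 0.586) for An-MBs minus SBs. For A_46_P226134 the 3 contrasts lay between -0.04 and 0.15, and for A_46_P072946 between -0.21 and 0.01. This fit pools the spread of all groups, the dim array of MES An-MBs included. Without that array, An-LBs minus SBs was again -0.63 for A_46_P284178, with an unadjusted p by limma of 0.0433 and an adjusted p of 0.117. The intervals are wide, so the data do not show that the stages were alike. Against leaves no test was made. The leaf difference exceeded that of SBs by 0.91, 1.41 and 1.37 for A_46_P284178, A_46_P226134 and A_46_P072946. It exceeded that of An-MBs by 1.49, 1.45 and 1.58, and that of An-LBs by 1.54, 1.30 and 1.58.

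In MES-treated plants the mean signal was lowest in SBs and higher in Ls and anthers with every probe. For A_46_P284178 the arrays of MES SBs and MES An-MBs overlapped. For A_46_P072946 the mean was 13.00 ± 0.17 in MES Ls, 11.74 ± 0.52 in MES SBs, 12.84 ± 0.36 in MES An-MBs and 13.30 ± 0.32 in MES An-LBs (SD, n = 3 each). For A_46_P226134 the same groups had 13.59 ± 0.22, 12.37 ± 0.32, 13.51 ± 0.28 and 13.97 ± 0.08. For A_46_P284178 they had 11.53 ± 0.17, 10.35 ± 0.43, 10.89 ± 1.03 and 11.82 ± 0.12. MES Ls stood above MES SBs by 1.18 for A_46_P284178, 1.22 for A_46_P226134 and 1.26 for A_46_P072946. Relative to the means of mock An-LBs, those of MES Ls were at -0.29, 0.08 and -0.09 in the same order of probes. For A_46_P284178 every MES Ls array lay below every mock An-LBs array, while the ranges overlapped with the other probes.

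In mock-treated plants the signal was low in Ls as well as in SBs and high in anthers. For A_46_P072946 the mean was 11.21 ± 0.20 in mock Ls, 11.32 ± 0.12 in mock SBs, 12.63 ± 0.27 in mock An-MBs and 13.09 ± 0.09 in mock An-LBs (SD, n = 3 each). For A_46_P226134 the same groups had 11.83 ± 0.17, 12.02 ± 0.12, 13.20 ± 0.39 and 13.51 ± 0.17. For A_46_P284178 they had 9.99 ± 0.13, 9.72 ± 0.09, 10.84 ± 0.39 and 11.82 ± 0.03. The anthers of large buds thus stood above leaves by 1.83 for A_46_P284178, 1.69 for A_46_P226134 and 1.88 for A_46_P072946. The difference of An-MBs over SBs was the larger part with each probe, at 1.12, 1.18 and 1.31, while An-LBs stood above An-MBs by 0.98, 0.32 and 0.45 in the same order of probes.

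Over all 8 groups the means spanned 2.10 log2 units for A_46_P284178, 2.15 for A_46_P226134 and 2.09 for A_46_P072946. Mock Ls was at the bottom with 2 of the 3 probes and mock SBs with A_46_P284178, and MES An-LBs was at the top with all 3. Not all neighbours in the order of the 8 groups were distinct. For A_46_P226134 the ranges of neighbours overlapped except between MES SBs and mock An-MBs and between MES Ls and MES An-LBs. For A_46_P072946 the only gap lay between MES SBs and mock An-MBs, where the means differed by 0.90. From mock An-MBs upward all 5 groups of this probe formed a run of overlapping neighbours, MES Ls among them. For A_46_P284178 mock SBs lay below mock Ls and MES Ls below mock An-LBs without overlap, and the other neighbours overlapped.

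The 3 probes followed each other across arrays. Over the 24 arrays Pearson's r was 0.982 between A_46_P226134 and A_46_P072946, 0.918 between A_46_P284178 and A_46_P072946, and 0.891 between A_46_P284178 and A_46_P226134. After subtracting each group's mean, the coefficients were 0.825, 0.730 and 0.664. The closest pair was the pair placed in the same contig, and the pair with the same identifier on the array came next. The arrays share slides and normalization, and no p-value is attached. The largest deviations from a group mean were -1.17 and 0.76, both for A_46_P284178 in MES An-MBs (replicates 2 and 1), followed by -0.60 for A_46_P072946 in replicate 1 of MES SBs.

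The ratio of 2 probes within an array describes how alike they changed. Between A_46_P226134 and A_46_P284178 the log2 ratio was 2.30, 2.01 and 2.15 in MES An-LBs, against 1.83, 1.48 and 1.76 in mock An-LBs. A_46_P226134 thus gained 0.46 on A_46_P284178 without overlap of the arrays. Among all probe pairs and tissues compared, this was the only case without overlap. Upward separation was found for 35.7% of single probes in An-LBs. Its share among probe pairs was not counted, so nothing is read from this case. The ratio of these 2 probes went the other way in SBs, with overlap and a mean difference of -0.28. It was 2.16, 2.05 and 1.82 in MES SBs, against 2.28, 2.51 and 2.10 in mock SBs. Between A_46_P072946 and A_46_P284178 the change of the ratio ran from -0.22 (SBs) to 0.25 (Ls), with overlap in every tissue. Between A_46_P072946 and A_46_P226134 the change of the ratio was at most 0.25 in size in any tissue. These differences were not tested.

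Beside ABCA2, the study's tables name 7 probes of other ABC transporters. They were listed for changes in these same samples, mostly in An-LBs, so their counts are no independent evidence of a direction. In An-LBs 4 of 7 were called higher and 3 lower in MES-treated anthers, with a median difference of 1.42 against 0.24 for all probes, and all 7 had an unadjusted p under 0.05. With the 2 probes that were below background in a group set at their bounds, the median was again 1.42. In Ls 1 was called higher and 1 lower of 7, with a median of -0.34 against -0.05, and 5 had an unadjusted p under 0.05. In SBs and An-MBs limma called 0 of 7 and 0 of 6 tested (MRP3, detected on 1 of 6 arrays of An-MBs, was not tested there), with 2 under an unadjusted p of 0.05 in each and medians of 0.16 and 0.61, against 0.05 and -0.04 for all probes. Lower calls made up 11.9% of all probes in An-LBs, 2.30% in Ls, 2.32% in SBs and 2.86% in An-MBs. Higher calls made up 17.3%, 2.52%, 1.81% and 4.24% in the same order of tissues. The share of all probes at an unadjusted p under 0.05 was not counted, so nothing is read from those counts.

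PEN3, which in Arabidopsis is a plasma membrane exporter of the G subfamily known for pathogen defence, rose in both Ls and An-LBs. Its log2 signal was 11.35, 10.73 and 11.65 in MES Ls, against 8.74, 8.84 and 9.92 in mock Ls (4.22-fold, adjusted p by limma of 0.0454). In An-LBs it had 8.62, 8.89 and 7.81 in MES-treated anthers and was detected on 0 of 3 mock arrays, where it was not well above background. The difference of the signals was 4.02 (adjusted p by limma of 0.000666). With a bound for the mock arrays the rise was put at 11.7-fold or more in the main processing. Such a bound compares the brighter group's mean with the other group's, taking on each array of the dim group the higher of the probe's own signal and that of the dimmest detected probe.

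AT5G06530, in Arabidopsis a half-size transporter of the G subfamily, was called in opposite directions. It had 6.77, 8.61 and 7.04 in MES Ls, against 10.91, 11.48 and 10.37 in mock Ls, a difference of -3.45 (adjusted p by limma of 0.0344). In An-LBs it had 9.51, 9.01 and 9.50 in MES-treated and 6.22, 6.38 and 6.85 in mock-treated anthers, a difference of 2.86 (adjusted p by limma of 0.000391). Both calls in Ls were lost when single arrays were left out. PEN3 was lost there without replicate 1 or 3 of MES Ls or any 1 array of mock Ls, which gave 0 higher. AT5G06530 was lost without replicate 1 of MES Ls or any 1 array of mock Ls, which gave 0 lower, while 2 were lower without replicate 2 of MES Ls.

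The other members of the list changed in An-LBs only by these calls, and the difference from other tissues was not tested. Both probes of AT1G54350, of the D subfamily, were higher in MES An-LBs, by 1.42 for A_46_P056701 and 1.82 for A_46_P198569 (adjusted p by limma of 0.00117 and 0.000693). NAP14, a soluble ABC protein of the chloroplast in Arabidopsis, was lower in MES An-LBs by a difference of -4.27, and NAP9 by -1.21 (adjusted p by limma of 0.000411 and 0.00222). NAP9 also had differences of -1.11 in Ls, -0.88 in SBs and -0.78 in An-MBs, without a call (adjusted p by limma of 0.0599, 0.143 and 0.310). Without replicate 2 of MES Ls it was called lower in Ls (adjusted p by limma of 0.0200). MRP3, in Arabidopsis a pump for glutathione conjugates, was not well above background in MES An-LBs and had 6.16, 5.59 and 6.05 in mock An-LBs. The difference of the signals was -2.70 (adjusted p by limma of 0.000652). In the main processing the bound put the fall at 2.86-fold or more. With normexp background correction the difference was -0.75, smaller in size than this bound.

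The probes whose pattern was most like ABCA2 were found by Pearson's r over the 24 arrays with the mean of the 3 probes, each centred on its own mean, among 27361 other probes detected on each of these arrays. The highest were A_46_P192004 (r = 0.914), A_46_P325390 (r = 0.906) and A_46_P044201 (r = 0.902), none of which the study's tables name, and 3 probes exceeded 0.9. A_46_P044201 averaged 10.13 ± 0.16 in MES Ls, against 8.85 ± 0.09 in mock Ls, and 10.55 ± 0.07 in MES An-LBs, against 10.40 ± 0.31 in mock An-LBs (SD, n = 3 each). A_46_P325390 had the widest range of the 3, with 13.70 ± 1.20 in MES Ls, against 9.46 ± 0.93 in mock Ls.

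Among probes with a gene symbol in the study's list, those most like ABCA2 were 2 probes of KAT2, a peroxisomal thiolase of fatty acid β-oxidation, with r = 0.854 for A_46_P258044 (rank 40) and r = 0.841 for A_46_P196639 (rank 69). The next was PAPS2, a poly(A) polymerase, with r = 0.800 for A_46_P180014 (rank 186). A_46_P258044 averaged 15.95 ± 0.68 in MES Ls, against 14.36 ± 0.08 in mock Ls. It averaged 18.48 ± 0.20 in MES An-LBs, against 16.93 ± 0.13 in mock An-LBs, a gap of a kind that the ABCA2 probes did not have in that tissue. A_46_P180014 averaged 11.46 ± 0.06 in MES Ls, against 10.05 ± 0.10 in mock Ls, and 12.98 ± 0.18 in MES An-LBs, against 13.13 ± 0.28 in mock An-LBs. These coefficients describe the 24 arrays and carry no p-value. Probes of the study's list, like the ABCA2 probes, were chosen for changes between treatments and between tissues on these arrays. Likeness within that list is therefore no independent evidence of a shared pattern.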

How the data were processed

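RNA of 24 samples was hybridized to single-colour (Cy3) Brassica oligonucleotide arrays. The deposited intensity values were made by the authors with Agilent Feature Extraction (version 9.1 in the submitters' processing notes, 10.7.3.1 in the file headers), which subtracted background within each array. A table of the authors holds deposited log2 values after quantile normalization in GeneSpring. Here the processed intensities of a probe's spots were averaged, put on the log2 scale and quantile normalized over the 24 arrays, which differed from the authors' values by a median of 6.54e-07. Saturated spots were kept, outlying spots had no weight, and 1417 control spots were left out.

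Each tissue was fitted alone with limma (version 3.58.1, R 4.3.3, with the data.table package, 1.17.8) over probes detected (well above background) on 3 or more of its 6 arrays, two-sided, in place of the Student's test of the methods, which was an alternative. The number of arrays limits the precision of every value. On simulated data with changes of 1.5, 2 and 3 on the log2 scale, the calls recovered 35.8%, 47.8% and 66.7% for Ls. For SBs the shares were 38.8%, 65.7% and 77.3%, for An-MBs 17.9%, 32.8% and 72.7%, and for An-LBs 35.8%, 61.2% and 71.2%. In each tissue 67, 67 and 66 probes were changed at these sizes, with normally distributed noise. Far more probes were called in the data, which alters the adjusted p, so these shares do not give the power of the real comparisons.

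As a check of pairing, the deviations of a MES array and the mock array with the same number correlated at 0.145, 0.252 and 0.429 in Ls. It was the only tissue with all 3 above 0.1. Neither labels nor slides pair a MES array with a mock array, and the main fits, that of Ls included, used no block. A block by replicate number was run as an alternative.

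The ABCA2 probes, the list of 7 ABC transporters, the marker lists and the rule for like patterns were chosen with earlier results of these data known. Named probes were the ABCA2 probes, probes with their identifiers, the ABC list, the markers, and the 3 probes most like ABCA2 overall and among probes with a symbol. Gene names come from the study's tables, since 0 of 40632 array identifiers matched the RefSeq gene table. Other alternatives were the 75th percentile, normexp with an offset of 50, the authors' values, quantiles within a tissue, other detection filters, outlying spots at full weight, 1 fit of 24 arrays, slide or scan date as a block, averaging replicates 1 and 2 of mock An-MBs, whose files carry alike names, and each array left out.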

Additional observations from a re-analysis of the deposited data

How the results depend on the processing

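In Ls the differences of the 3 probes stayed between 1.45 and 1.92 over 13 alternatives and between 1.46 and 1.91 with single arrays left out, the replicate block included (1.54, 1.76 and 1.79). No ABCA2 probe was called in SBs, An-MBs or An-LBs under any alternative or with any array left out, and no contrast between these tissues passed. The lowest adjusted p was that of A_46_P226134 in An-LBs with normexp (0.0454, under 2-fold), within 0.0454 to 0.166 over its alternatives. With the replicate block its value was 0.46 (adjusted p by limma of 0.111), and, probe by probe, the block changed no call of an ABCA2 probe or of the 7 other ABC probes.

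Values near 0 changed sign. For A_46_P284178 the difference in An-MBs was -0.078 under the 75th percentile shift and between -0.33 and 0.63 with single arrays left out. In An-LBs it was -0.00025 with quantiles within the tissue, -0.016 with slide as a random block, -0.025 with scan date as a block, and between -0.041 and 0.072 with single arrays left out. The contrast An-LBs minus An-MBs was 0.094 for A_46_P284178 and -0.065 for A_46_P072946 under the 75th percentile shift, and -0.051 for A_46_P072946 without replicate 2 of both An-MBs groups. With single arrays left out it ran from -0.63 to 0.33 for A_46_P284178 and from -0.20 to 0.16 for A_46_P072946. An-MBs minus SBs ran from -0.96 to 0.0038 for A_46_P284178 and from -0.27 to 0.11 for A_46_P226134, and An-LBs minus SBs from -0.060 to 0.26 for A_46_P226134.

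Among the 7 other ABC probes, the number lower in Ls was 2 with normexp, with all 24 arrays in 1 fit and with slide as a random block. The added probe was NAP9 each time (adjusted p by limma of 0.0492, 0.0201 and 0.0218). The number lower in Ls was 0 without a filter on dim probes, with scan date as a block, under the methods' t-test and under that test after Benjamini-Hochberg. The number higher in Ls was 0 under the same 4. The number higher in An-MBs was 1 with all 24 arrays in 1 fit and with slide as a random block. With single arrays left out the counts in Ls ran from 0 to 1 higher and 0 to 2 lower, and in An-MBs from 0 to 1 higher. In An-LBs they ran from 3 to 4 higher and 2 to 3 lower, since PEN3 without any 1 MES array and MRP3 without any 1 mock array were no longer tested, nor was either with detection required on all arrays. MRP3 was not called with normexp (-0.75) nor NAP9 under the methods' t-test. Without a filter on dim probes more probes are tested; for the other settings the cause was not tested. Over all probes, in the order of tissues used throughout, limma called 1567 (Ls), 1401, 2468 and 10233 (An-LBs). The methods' t-test called 145, 236, 548 and 3172, and after Benjamini-Hochberg 0, 0, 349 and 8950. The replicate block gave 2013, 811, 1664 and 9953. The ABCA2 probes were well above background on every array, and the dim array of MES An-MBs goes with the widest interval.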
